A study of Mus musculus with 9 samples.

Results

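Library HH, from epididymal adipose tissue (epiAT) of mice fed a high-fat diet (HFD) for 25 weeks, was compared with library H, from mice fed the same kind of diet for 12 weeks. Both hold single-nucleus RNA-sequencing counts of snap-frozen epiAT from male C57BL/6J mice, an inbred laboratory strain that becomes obese on HFD, and 5 mice were pooled in each. The H mice were 18 weeks old and the HH mice 31 weeks old, so diet duration and age cannot be told apart. Libraries of mice labelled as chow-fed, aged 18 weeks (C) and 26 weeks (CC), are given beside them as background. The design text calls the control diet low fat, and per the study's methods controls of the weight-loss period were switched to a standard chow. C and CC may therefore differ in diet as well as age. No chow library of 31 weeks is among the 9 libraries used here. H, HH and C belong to 1 sequencing set and CC to another. Barcodes holding between 500 and 3000 genes and no more than 40000 unique molecular identifiers (UMIs) were taken as nuclei, which left 23157 of the 76356 nuclei that passed these limits in all libraries, 9827 in H and 13330 in HH. With 1 library on each side no test across animals was possible. The intervals below are 95% intervals that cover counting error only, exact except for those of differences of shares. They say nothing of the spread between mice or between library preparations.

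Epididymal fat stores triglyceride in adipocytes, which sit among progenitors, vessels, immune cells and a mesothelial covering. In obesity, adipocytes of this depot enlarge and many die, and macrophages gather around the dead cells. Many of these macrophages take up lipid and turn on lysosomal and lipid-handling genes, among them Trem2 and Gpnmb, and are known as lipid-associated macrophages (LAMs). Progenitors deposit collagen and other matrix proteins and secrete chemokines, while some of them become new adipocytes.

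The files held 11154 barcodes and 40823614 UMIs for H, and 14833 barcodes and 44579308 UMIs for HH. Kept nuclei of H were the deeper, with a median of 2640 UMIs against 2158, and mitochondrial genes took 1.09% of UMIs in H and 1.04% in HH. Among kept nuclei both libraries shared 43 barcodes, 0.438% of the kept ones of H and 0.323% of those of HH. After doublet calls and clusters of mixed low-count nuclei were taken out, 9486 nuclei of H and 12444 of HH were clustered with those of C and CC.

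Cell classes named from marker genes differed in proportion between the libraries. Macrophage-like nuclei made up 57.3% of H (5435 nuclei) and 46.3% of HH (5763 nuclei), a difference of -11.0 percentage points (interval -12.3 to -9.66). Progenitor-like nuclei, by contrast, were 19.8% of H and 26.3% of HH, though without library correction the difference was 0.345 points in place of 6.53. Shares in a library are parts of a whole, so a lower macrophage share by itself raises those of other classes. Its part in this share and in those below was not tested. In C and CC macrophage-like nuclei were 18.0% and 14.8% of nuclei, so HH lay between H and both chow libraries, nearer to H. When only H and HH were clustered together, 5820 nuclei formed a cluster that received no name although macrophage markers led it. The macrophage difference was then -0.314 points without that cluster and -11.0 points with it.

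Immune classes other than macrophages held more of HH than of H, apart from dendritic cells. Mast cell-like nuclei, defined by Kit and Cpa3, were 0.39% of H (37 nuclei) and 1.69% of HH (210 nuclei), a 4.33-fold higher share. B cell-like nuclei were 0.833% and 2.48% (79 and 309 nuclei), and T or NK cell-like nuclei 1.28% and 2.52% (121 and 314 nuclei). None of their intervals overlapped between H and HH. Each of the 3 shares in HH also lay above its shares in C and CC, although for T or NK cells the intervals of HH and CC overlapped. The 38 mast cell-like nuclei of C held little of the markers, with Cpa3 at 64.4 CPM and Kit at 215. In H these were at 5711 and 2284 CPM, so the C share may hold other nuclei. Dendritic cell-like nuclei were 1.58% of H and 1.12% of HH.

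Adipocyte-like nuclei were scarce in both HFD libraries, at 1.84% of H (175 nuclei) and 3.33% of HH (415 nuclei), against 20.8% of C and 21.9% of CC. The limit of 3000 genes bears on this class, since adipocyte-like nuclei were 403 of the 909 nuclei above it in H and 519 of 802 in HH. With those nuclei the share was 5.61% in H and 7.04% in HH, so the order was kept and the ratio became smaller. Mesothelial-like nuclei, from the sheet that covers the fat pad, were 4.09% of H and 6.89% of HH. Epithelial-like nuclei, from the neighbouring epididymis, were 3.36% of H and 1.01% of HH. A cluster led by cell division genes (Top2a, Ska1, Hmmr), which matched no class, was 3.76% of H and 2.39% of HH against 0.381% of C. Endothelial-like nuclei did not differ beyond counting error, with 3.92% and 3.87%, a difference of -0.0482 points (interval -0.571 to 0.465).

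**Figure D1:**
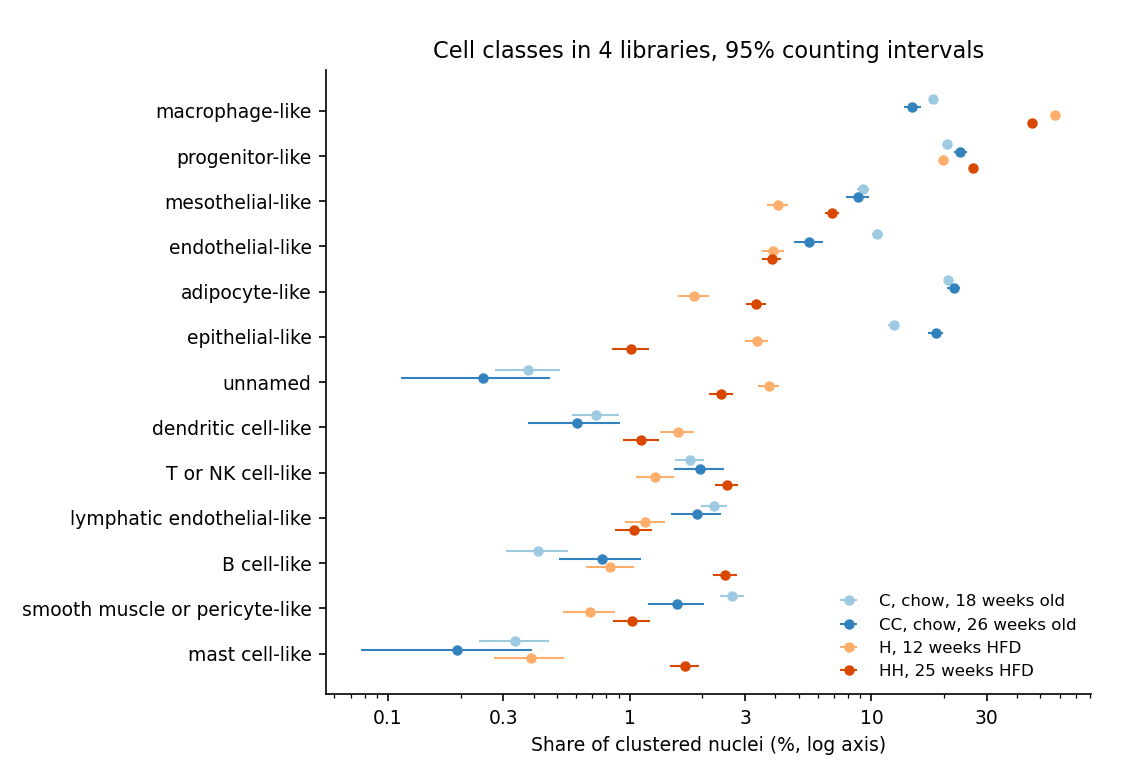
Share of clustered nuclei (x axis, percent, log scale) in each cell class (y axis) for the libraries C, CC, H and HH, with 95% counting intervals as bars. The macrophage-like share is 57.3% in H and 46.3% in HH, and mast, B and T or NK cell-like shares are highest in HH.

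Gene levels were compared within each class from summed UMIs, given as CPM, that is UMIs scaled to a class total of 1000000, without mitochondrial genes and Malat1. A gene with at least 50 UMIs over H and HH was called higher or lower when its CPM differed by at least 2-fold and the interval of the ratio left out equality. Among 13645 genes in macrophage-like nuclei, 359 (2.63%) were called higher in HH and 89 (0.652%) lower. Free RNA from burst cells enters every droplet. What mesothelial-like nuclei held of a gene, in CPM and in each library, is therefore given as the background level for the other classes. Mesothelial-like nuclei express some of these genes themselves, so that level is not free RNA alone. Summed over a list of mesothelial matrix and inflammatory genes they held 5621 CPM in H, against 2174 in endothelial-like nuclei. Of the 359 genes called higher, 168 were in HH at or above that background level, and of the 89 called lower, 69 were in H. With that background subtracted the balance turned, 324 genes being called higher (79 of them among the 359) and 357 lower (48 among the 89).

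Genes of MHC class II presentation were higher in HH than in H. Class II molecules carry peptides to the surface for CD4 T cells, and of 9 list members tested in macrophage-like nuclei 7 were called higher and 0 lower, with a median log2 ratio of 1.25 against 0.02 over all genes tested. H2-Aa, the alpha chain of the I-A molecule, was at 174 CPM in H and 414 CPM in HH (2465 and 5280 UMIs), against 147 in C and 128 in CC. H2-Eb1, the beta chain gene of the I-E molecule, was at 183 and 434 CPM. Cd74, the invariant chain that holds the binding groove until loading, was at 302 and 749 CPM. HH therefore stood above H, C and CC for each of these 3 genes. Ciita, the transactivator that switches the class II genes on, was at 61.2 CPM in H and 119 in HH, a log2 ratio of 0.96 (interval 0.84 to 1.08) that fell short of the 2-fold limit, and it was at 107 CPM in C and 242 CPM in CC.

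The same genes were also higher in HH outside the macrophage class. In mesothelial-like nuclei H2-Aa was at 107 CPM in H and 247 in HH, and Cd74 at 169 and 410 CPM. In macrophage-like nuclei thinned to 1000 UMIs, Cd74 was detected in 23.8% of H and 49.5% of HH, and in mesothelial-like nuclei in 16.9% and 34.5%. Detection of Ciita, which was near 0 in mesothelial-like nuclei (0.829% and 0.124%), was 5.76% of macrophage-like nuclei in H and 10.2% in HH. After the mesothelial level was subtracted, the list median was 0.98 in place of 1.25, and H2-Eb1 (0.98) and H2-Ab1 (0.98) fell short of 2-fold. With H and HH clustered alone, H2-Aa (0.96), H2-Eb1 (0.97), H2-Ab1 (0.85) and H2-DMb1 (0.76) fell short of 2-fold. Of 49 genes then called lower in macrophage-like nuclei 13 were among the 89. That setting left the 5820 unnamed nuclei led by macrophage markers (3102 of H and 2718 of HH) outside the class. Its ratios therefore come from a different set of nuclei, as do all macrophage-like values given below for that setting. H2-DMb1 also fell short at clustering resolution 1 (0.989). As means over nuclei H2-DMb1 (0.93) and H2-Ab1 (0.998) did so too. Summed CPM of the 10 B cell markers within macrophage-like nuclei was 118 in H and 246 in HH, and that of the 8 dendritic cell markers 24.5 and 32.3, and their part in the class II result was not tested.

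Promoters of class II genes share an arrangement of boxes, the last of which is the Y box, an inverted CCAAT sequence written GATTGG. Because the class II genes were higher together, the 250 bases before the RefSeq start of 2 of them are shown, from build GRCm38.p6, 5′ to 3′ on the strand of the gene, with each GATTGG or its complement in capitals. H2-Aa lies at chr17:34287824-34288073 on the minus strand and H2-Eb1 at chr17:34305617-34305866 on the plus strand. Both genes and the motif were chosen after the values were seen.
H2-Aa: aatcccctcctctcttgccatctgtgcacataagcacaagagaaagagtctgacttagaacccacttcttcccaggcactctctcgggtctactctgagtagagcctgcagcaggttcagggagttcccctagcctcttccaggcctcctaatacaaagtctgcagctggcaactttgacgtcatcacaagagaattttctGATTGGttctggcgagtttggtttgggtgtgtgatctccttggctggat
H2-Eb1: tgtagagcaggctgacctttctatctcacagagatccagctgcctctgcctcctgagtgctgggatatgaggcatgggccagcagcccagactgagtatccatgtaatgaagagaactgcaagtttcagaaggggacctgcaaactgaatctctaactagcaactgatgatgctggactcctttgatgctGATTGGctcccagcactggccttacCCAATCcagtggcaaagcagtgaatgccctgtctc
The motif GATTGG, searched on both strands, was present in all 7 of the 10 list genes that had an entry. For H2-DMa it was in 1 of 2 entries, 199 bases before the start. It lay 49 bases before the start in H2-Aa and 60 and 35 in H2-Eb1. Of 32851 promoters of that length 14.6% held GATTGG. The longer form CTGATTGG, also searched, was in 3 of these 7 genes and in 3.83% of the promoters. A match is a description of the sequence, not evidence that a factor was bound.

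Genes of cholesterol handling lay on both sides of equality. Sqle, an enzyme of sterol synthesis, was at 15.0 CPM in H and 8.24 in HH, and Srebf2, the transcription factor of the sterol genes, at 78.2 and 59.4 CPM. Abca1, which exports cholesterol, was at 564 CPM in H and 947 in HH. Apoe, which accepts the exported lipid, was at 1152 and 2127 CPM in macrophage-like nuclei and at 798 and 1346 CPM in the mesothelial-like background. Of the 14 members 0 were called higher and 1, not reported here, lower, and the median log2 ratio was -0.13.

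The LAM programme did not pass the 2-fold limit in either direction. Of its 15 members 0 were called, 9 had ratios below equality and the median log2 ratio was -0.13, which became 0.03 after the mesothelial level was subtracted. Apart from Apoe, the members with most UMIs were lower in HH. Cd36, a fatty acid receptor, was at 4976 CPM in H and 3595 in HH, and Mmp12, a macrophage elastase, at 3927 and 2425 CPM, against 39.5 and 15.9 CPM of Mmp12 in C and CC. Gpnmb was at 2588 CPM in H and 2368 in HH, and Lpl at 1781 and 1390. Trem2, a lipid receptor of these macrophages, was nearly level at 351 and 381 CPM, as was Atp6v0d2, a subunit of the lysosomal proton pump, at 1011 and 1163. Spp1 (125 and 96.2 CPM), Cd9 (375 and 319), Itgax (197 and 177) and Fabp5 (93.5 and 106) completed the markers of this state. In mesothelial-like nuclei of H and HH, Spp1 was at 108 and 71.6 CPM, Cd9 at 277 and 243 and Trem2 at 230 and 229. Mmp12 was at 1034 and 564 CPM there, Gpnmb at 672 and 406 and Lpl at 457 and 401. Fabp5 was at 41.7 and 40.7 CPM, Itgax at 49.7 and 41.2 and Atp6v0d2 at 10.9 and 20.1. Lysosome genes were balanced likewise, with 0 of 18 called and ratios above and below equality for 9 each, Ctsb at 1731 and 1708 CPM and Mitf, a transcription factor of lysosomal genes, at 2703 and 2348 CPM.

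**Figure D2:**
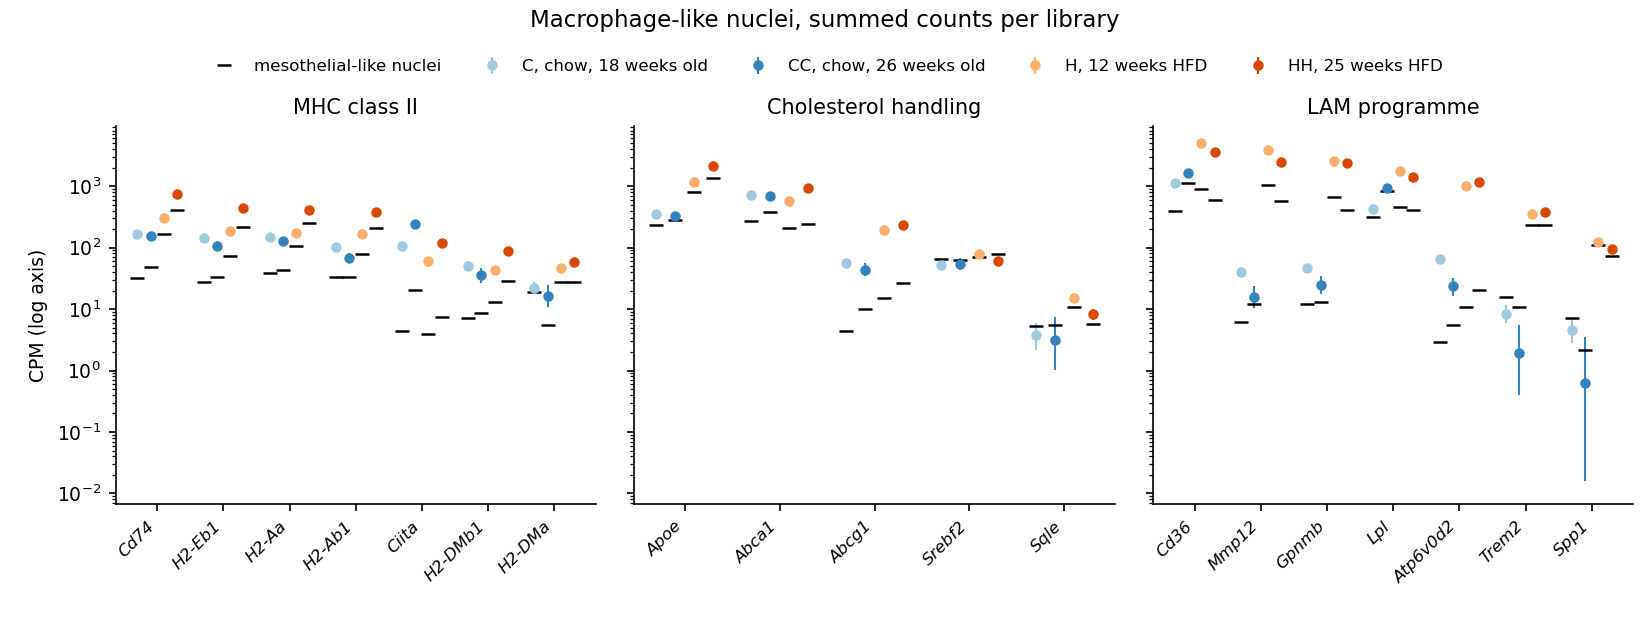
CPM (y axis, log scale) of MHC class II, cholesterol handling and LAM genes in macrophage-like nuclei of the libraries C, CC, H and HH (coloured points with 95% counting intervals), with the mesothelial-like level of each library as a black dash. Class II genes are highest in HH except Ciita, while LAM genes stand above both chow libraries in H and HH, for example Mmp12 at 3927 CPM in H and 2425 in HH.

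Markers of resident perivascular macrophages (PVMs) were at similar levels in H and HH and mostly below chow. Of the 14 members of the list 0 were called and the median log2 ratio was 0.13. F13a1 was at 853 CPM in H and 871 in HH against 5775 in C and 4319 in CC, and the mannose receptor gene Mrc1 at 1180 and 1142 against 2584 and 1968. Lyve1 (27.4 and 24.9 CPM), Timd4 (8.76 and 10.3), Folr2 (94.1 and 92.0) and Cd209f (46.5 and 49.0) also differed little. The scavenger receptor gene Cd163 was at 122 CPM in H and 175 in HH, Gas6 at 116 and 141, and the chemokine Pf4 at 61.1 and 106 CPM. In the mesothelial-like background Gas6 was at 629 and 622 CPM, above its macrophage-like level, and Pf4 at 28.8 and 53.4 CPM.

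Macrophage-like nuclei clustered again alone gave 18.9% LAM-like nuclei in H and 15.1% in HH, and 9.20% and 9.37% PVM-like nuclei. A small cluster with 1.56% of H and 1.32% of HH held all 8 markers of non-perivascular macrophages (NPVMs), but the monocyte genes Plac8 and Vcan were among its leading genes, so it is given no name here. LAM-like nuclei were 2.02% of the class in C. Most nuclei, 70.3% in H and 74.3% in HH, had too few state markers for a name. The direction of the LAM, PVM and small-cluster shares depended on the clustering: under at least 1 alternative each of the 3 reversed, so they are given as values only. In the clustering of all classes together, a macrophage-like cluster led by Ms4a14 and Ms4a4a held 2465 nuclei of H and 2995 of HH, and another, led by Dcstamp and Rgs1, 2447 and 2195.

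Complement genes leaned towards HH. Of 12 members 2 were called higher and 0 lower, with a median log2 ratio of 0.52. The called genes C3 (129 and 284 CPM) and Cfb (16.9 and 35.2 CPM) were both at higher levels in mesothelial-like nuclei, with C3 there at 1402 and 1656 CPM, and Cfb fell short of 2-fold (0.97) with H and HH clustered alone. C1qa, a chain of the protein that opens the classical pathway and a typical macrophage product, was at 291 CPM in H and 470 in HH. Other macrophage lists stayed near the median of all genes. Of 13 inflammatory genes 1, the chemokine Ccl5, was called higher (3.67 and 7.77 CPM), with a log2 ratio that reversed to -0.47 when the mesothelial level was subtracted, while Nfkb1 was at 280 and 296 CPM, Ccl2 at 60.5 and 38.6 CPM and Cxcl2 at 48.4 and 45.4 CPM. Of 12 interferon genes 2 were called higher, Cxcl9 (2.26 and 5.73 CPM) and Gbp2 (4.24 and 8.48 CPM), and 1 lower, Ifit2 (5.22 and 2.59 CPM), and the median log2 ratio was 0.06. None of these 3 calls held throughout. Cxcl9 reversed to -4.34 with the mesothelial level subtracted, and with H and HH clustered alone Gbp2 was at 0.40 and Ifit2 at -0.85. None of 14 cell cycle genes was called, 11 lying below equality. Nuclei of the unnamed cluster led by cell division genes (357 of H and 297 of HH) are outside the macrophage-like class, so these values leave them out. Mki67 was at 7.34 and 4.95 CPM, Top2a at 8.33 and 7.54, Cenpe at 8.12 and 7.85, Cenpf at 3.04 and 3.53, Kif11 at 3.39 and 4.55, Knl1 at 3.95 and 2.83 and Diaph3 at 42.3 and 33.5. Aspm (17 and 11 UMIs) and Bub1 (23 and 15 UMIs) were under the count minimum.

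Receptors for monocyte recruitment and growth factors held 1 called gene of 9. Ly6c2, a marker of classical monocytes, had 10 UMIs in H and 53 in HH (log2 ratio 2.56), with a mesothelial-like level of 3.75 CPM against 4.16 CPM in the HH macrophage-like nuclei, and after subtraction the ratio reversed to -0.77. Ccr2, the receptor for the chemokine Ccl2, was at 76.3 and 99.8 CPM, Cx3cr1 at 22.9 and 21.9, Csf1r at 216 and 244 and Csf2ra at 785 and 675. The remaining NPVM markers were H2-Ab1, called higher at 167 and 378 CPM, and Ear2, at 22.0 and 40.8 CPM.

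Among the genes called with the interval farthest from equality in macrophage-like nuclei were some known as products of other cells. Svs5, Svs4 and Svs6, which encode secreted seminal vesicle proteins, had 1, 0 and 1 UMIs in H and 388, 118 and 70 in HH, so Svs4 was at least 43.7-fold higher, with the count of H taken at 3, the one-sided limit that a count of 0 allows. The interval used elsewhere, which is wider because it is two-sided, reached down to a log2 ratio of 5.13, and its limit is given below for the other genes with no UMI on 1 side. Svs5 was also at 23.9 CPM in mesothelial-like nuclei of HH, against 30.5 CPM in the macrophage-like ones. Igkc, the kappa light chain of antibodies, was at 16.8 CPM in H and 113 in HH, with 18.9 and 109 CPM in mesothelial-like nuclei. Mrgprx2, a mast cell receptor gene, had 11 and 77 UMIs, and Capn11 had 9 and 61. Igkc and Mrgprx2 went with the larger B and mast cell-like shares of HH, whose part was not tested.

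Among the genes called lower in HH, Gclm (chr3:122245557-122270732), the regulatory subunit of the enzyme that starts glutathione synthesis, was at 143 CPM in H and 46.3 in HH (2024 and 590 UMIs), 3.09-fold lower, against 18.1 in C and 22.2 in CC. Ptgr1, a reductase that clears lipid aldehydes and prostaglandins, was at 38.1 and 11.3 CPM, with a log2 ratio of -0.24 when H and HH were clustered alone. Serpinb9b, a protease inhibitor, was at 56.4 and 14.9 CPM and near 0 in both chow libraries. All 3 were above the mesothelial-like level, which was 32.8 and 17.8 CPM for Gclm. The sperm gene Prm1 had 51 UMIs in H and 0 in HH, at least 15.3-fold lower (interval limit 3.58 on the log2 scale), and 138 in C and 0 in CC. Haemoglobin genes Hba-a1 and Hba-a2 (2203 and 1770 UMIs in H, 626 and 451 in HH) were called lower as well, but 919 and 773 of the UMIs of H were in 1 nucleus. Their log2 ratios reversed to 2.10 and 1.75 when H and HH were clustered alone, and were -0.58 and -0.71 as means over nuclei.

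In progenitor-like nuclei, 244 of 12708 genes (1.92%) were called higher and 75 (0.59%) lower. Of the matrix lists, 3 genes were called lower and 0 higher, all 3 of the matrix glycoprotein list, and of the chemokine and inflammatory list 2 were called higher and 0 lower. Without library correction 56 genes were called lower, of which 12 were among the 75, and 119 higher, of which 51 were among the 244. With the mesothelial level subtracted the balance turned, with 314 higher (71 among the 244) and 348 lower (43 among the 75). That level includes the mesothelial class's own expression, whose part in the turn was not tested. The median depth of progenitor-like nuclei was 2616 UMIs per nucleus in H and 1808 in HH. This was the widest gap among the 5 classes compared, and its part in these results was not tested.

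Collagen genes were lower as a group without passing the 2-fold limit. Of 19 genes 0 were called, but 16 lay below equality and the median log2 ratio was -0.49, against 0.03 over all genes tested. Col3a1, the main chain of type III collagen, was at 3251 CPM in H and 1640 in HH (17580 and 11003 UMIs), a log2 ratio of -0.99 (interval -1.02 to -0.95). Levels in C and CC were 459 and 369 CPM, so HH stayed well above chow. Col5a2 was at 1413 and 1000 CPM, Col1a2 at 898 and 684 and Col4a1, of the basement membrane, at 816 and 546. In mesothelial-like nuclei Col3a1 was at 2792 and 2591 CPM, above the progenitor-like level of HH.

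Matrix glycoproteins and crosslinking enzymes held 3 genes called lower of 21, or 14.3%, and 0 higher, with a median log2 ratio of -0.32. Postn (chr3:54361109-54391037) encodes periostin, a matricellular protein of wounds and fibrosis, and was at 770 CPM in H and 287 in HH, in 1037 and 708 nuclei, against 39.7 in C and 24.5 in CC. Tnc, which encodes tenascin C, was at 33.7 and 8.20 CPM (48 and 18 nuclei), and Fbn2 at 12.2 and 5.07 CPM (36 and 12 nuclei). Fbn1, the main microfibril protein, was at 1683 and 894 CPM and fibronectin, Fn1, at 1064 and 762 CPM. Decorin was on the other side, with Dcn at 2047 CPM in H and 2802 in HH. Its mesothelial-like level was 2345 and 3120 CPM.

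**Figure D3:**
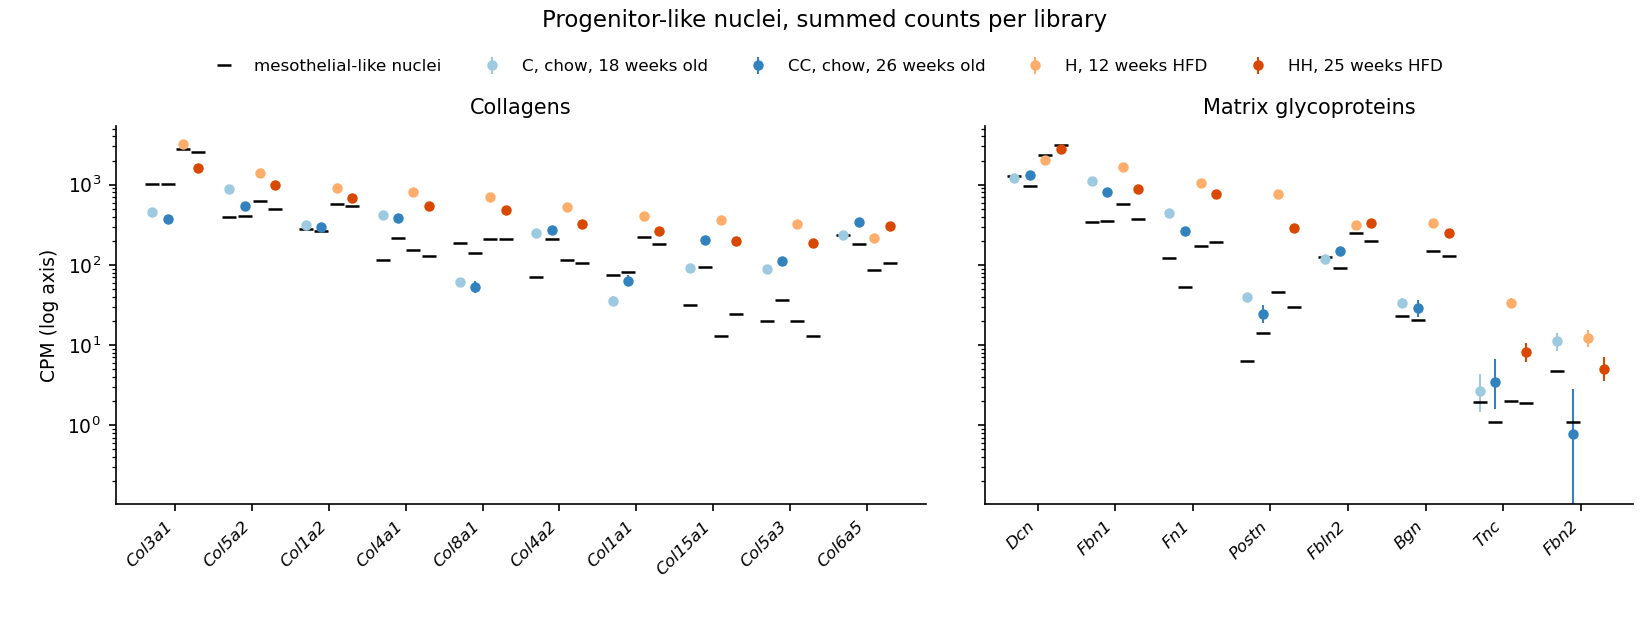
CPM (y axis, log scale) of collagen and matrix glycoprotein genes in progenitor-like nuclei of the libraries C, CC, H and HH (coloured points with 95% counting intervals), with the mesothelial-like level as a black dash. Most genes are highest in H and lower in HH, as Col3a1 at 3251 and 1640 CPM and Postn at 770 and 287 CPM, while Dcn is highest in HH.

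Proteases and inhibitors of the matrix were divided, with 0 of 15 called. Adamts5, an aggrecanase, was at 1023 CPM in H and 719 in HH, Adamts12 at 875 and 693 and Adamts2, which trims procollagen, at 563 and 446. The inhibitor genes Timp2 and Timp3 were on the other side, Timp3 at 110 and 207 CPM. TGF-beta and activin genes likewise had 0 of 16 called, the coreceptor Tgfbr3 being at 1461 and 1527 CPM, Tgfbr2 at 417 and 357 and the signal transducer Smad3 at 243 and 174.

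Markers of fibro-inflammatory progenitors (FIPs), a population that secretes matrix and chemokines, had a median log2 ratio of -0.39. Wnt2 was the only one of 11 called, lower at 7.40 and 3.43 CPM (40 and 23 UMIs), and without library correction its log2 ratio was -0.45, short of 2-fold. Creb5 was at 990 CPM in H and 911 in HH, Cd55 at 383 and 293, and Pi16 at 318 and 377. FIP-like nuclei were 18.7% of the class in H and 16.6% in HH. Genes of committed adipocyte progenitors had 0 of 12 called. Pparg, the master regulator of adipogenesis, was at 206 and 163 CPM, Cd36 at 856 and 787 and Lpl at 712 and 677, while Fabp4 was at 260 and 480 CPM with a mesothelial-like level of 281 and 414.

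Chemokine and inflammatory genes were the list with the highest median among those of progenitors, 0.44, and 2 of 17 (11.8%) were called higher. Saa3, an acute-phase protein made by inflamed stroma, had 31 UMIs in H and 261 in HH, 5.73 and 38.9 CPM. In mesothelial-like nuclei it was at 10.9 and 42.1 CPM. Cxcl13, a chemokine that attracts B cells, had 27 and 118 UMIs, 4.99 and 17.6 CPM. C3 was at 425 and 734 CPM and Nfkb1 at 315 and 297. After subtraction of the mesothelial level the median of the list was -0.02, so the direction depended on that step. Over the list that level summed to 2945 and 3366 CPM, above 1898 and 2421 in progenitor-like nuclei. It includes expression of the mesothelial class itself, so the step is not a correction for free RNA alone. Of 10 genes of growth arrest and senescence 1 was called higher, Cdkn1c, an inhibitor of the cell cycle, at 10.7 and 22.9 CPM, with a log2 ratio of 0.55 without library correction, while Mdm2 was at 86.2 and 72.4 CPM and Cdkn1b at 62.1 and 55.2.

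Outside the lists, 2 maternally expressed noncoding RNAs of the imprinted Dlk1-Dio3 cluster were lower in HH. Rian (chr12:109603940-109661716) was at 446 CPM in H and 166 in HH, and Mirg (chr12:109729764-109749460) at 85.2 and 30.3, against 156 and 17.4 in C and 70.0 and 13.2 in CC. Both were lower in mesothelial-like nuclei as well, Rian at 298 and 180 CPM. The adhesion gene Chl1 was at 52.1 and 13.3 CPM, with 63 of its 282 UMIs of H in 1 nucleus, and Frem1, a basement membrane protein gene, at 36.4 and 9.24 CPM in 102 and 39 nuclei. Among genes called higher, Svs5, Svs6 and Svs4 again stood out, with 0, 0 and 1 UMIs in H and 233, 54 and 74 in HH, at least 62.6-fold for Svs5 (interval limit 5.66 on the log2 scale) and 14.5-fold for Svs6 (3.51). Igkc was at 12.9 and 116 CPM and Ly6d at 1.11 and 12.8 CPM. In mesothelial-like nuclei Ly6d was at 0.993 and 11.2 CPM. Cemip had 7 and 120 UMIs, of which 98 in HH were in 1 nucleus, and its log2 ratio was -3.45 without library correction.

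In adipocyte-like nuclei, 142 of 7891 genes (1.8%) were called higher and 44 (0.558%) lower, from 175 and 415 nuclei. With the mesothelial level subtracted 113 were higher (42 among the 142) and 97 lower (19 among the 44). The metabolic lists showed small differences. None of the 12 genes of de novo lipogenesis was called, with a median log2 ratio of -0.06. Acaca, which makes malonyl-CoA for fatty acid synthesis, was at 723 CPM in H and 552 in HH against 3765 in C and 1118 in CC. Thrsp, a regulator of lipogenesis, was at 376 and 618 CPM, and Mlxipl, the carbohydrate-responsive transcription factor ChREBP, at 358 and 374.

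Triglyceride synthesis had 0 of 9 called. Dgat2, one of the enzymes that add the last acyl chain, was at 698 CPM in H and 1007 in HH, Dgat1 at 531 and 485, and Gpd1, which supplies the glycerol backbone, at 219 and 336. Lipolysis and droplet proteins had 0 of 12 called, with 10 above equality and a median log2 ratio of 0.13. Perilipin 4, Plin4, was at 2226 and 2289 CPM, the lipase inhibitor G0s2 at 2072 and 2713, and Cidec, which enlarges lipid droplets, at 1824 and 2218. Plin1 was level at 1646 and 1708 CPM. Uptake genes were closer still, with 0 of 9 called and all log2 ratios between -0.27 and 0.19, Fabp4 being at 5506 and 6295 CPM and Acsl1 at 3004 and 3328. Of 10 fatty acid oxidation genes 0 were called, Acadm being at 286 and 224 CPM.

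Insulin signalling had 0 of 12 called, 9 below equality and a median log2 ratio of -0.11. Pde3b, which mediates the antilipolytic effect of insulin, was at 1429 CPM in H and 1469 in HH. Grb14, an inhibitor of the insulin receptor, was at 358 and 231 CPM, with C and CC at 60.7 and 73.8. Growth hormone receptor Ghr, an adipocyte marker named here after its values were seen, was the most abundant of the markers, at 18099 CPM in H and 12004 in HH, against 32642 in C and 11455 in CC.

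Regulators of adipocyte identity included 1 gene called higher of 12. Cebpd, an early adipogenic factor that also responds to inflammation, was at 29.4 CPM in H and 85.3 in HH (23 and 156 UMIs), a log2 ratio of 1.54 (interval 0.90 to 2.24). Its mesothelial-like level was 57.6 and 59.9 CPM. Its relative Cebpb was at 223 and 375 CPM, Pparg at 2048 and 2486, and Ebf1 at 6193 and 5797. Among adipokines Sfrp5, a Wnt inhibitor, was called lower of 10 genes, with 32 and 35 UMIs, 40.9 and 19.1 CPM. Nrg4 was at 865 and 1162 CPM, Angptl4 at 480 and 333, and leptin, Lep, at 352 and 317. Genes linked to obese adipocytes had 0 of 8 called and a median log2 ratio of 0.27. Nnat, which encodes neuronatin, was at 6040 CPM in H and 9126 in HH against 1196 in C, Npr3 at 2478 and 2158, and Vwc2l at 625 and 729 against 5.34 in C. Amine and xenobiotic oxidases (0 of 8 called, Aldh1a1 at 843 and 841 CPM, Aoc3 at 274 and 180) and matrix genes (0 of 14 called, Lama4 at 1257 and 1204 CPM, Col4a1 at 492 and 447) completed the adipocyte lists.

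**Figure D4:**
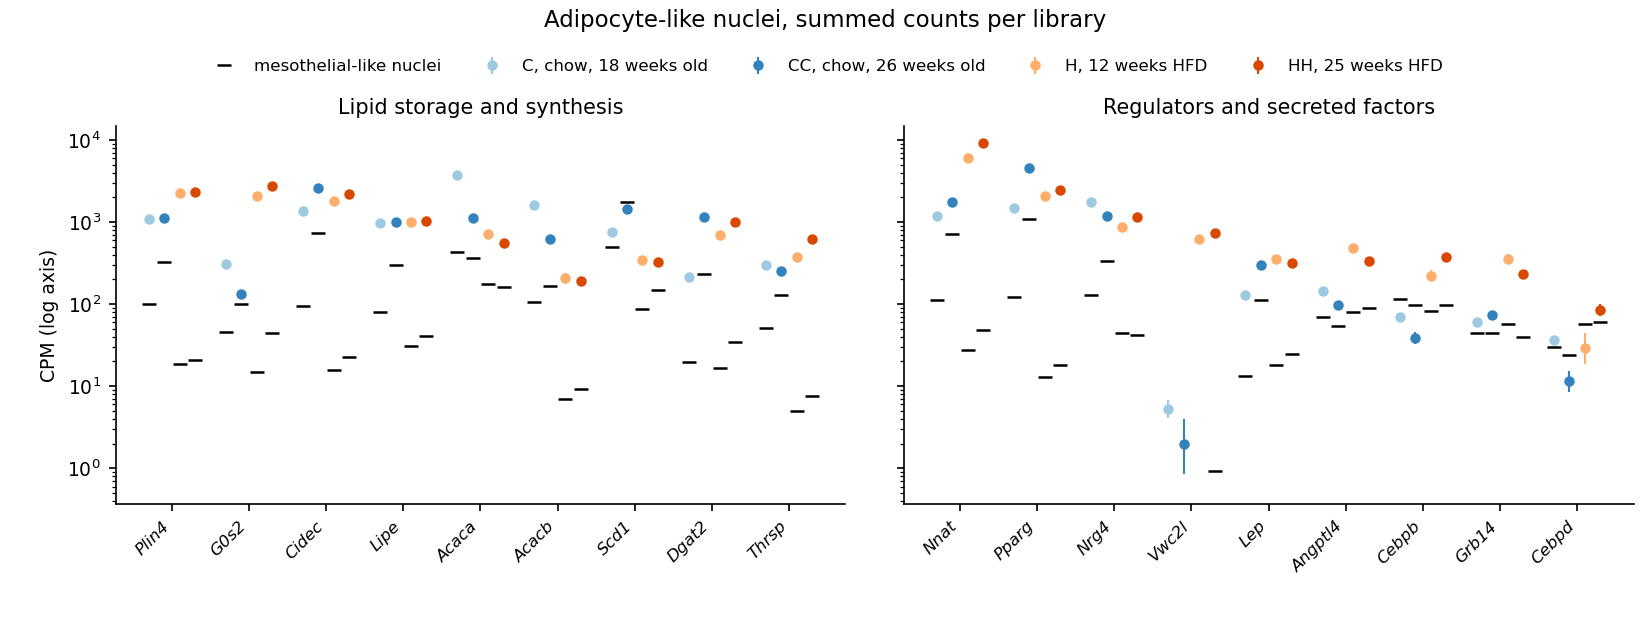
CPM (y axis, log scale) of lipid genes, regulators and secreted factors in adipocyte-like nuclei of the libraries C, CC, H and HH (coloured points with 95% counting intervals), with the mesothelial-like level as a black dash. H and HH lie close together for lipid genes, as Plin4 at 2226 and 2289 CPM, and Cebpd is at 29.4 and 85.3 CPM.

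Adipocyte genes with the intervals farthest from equality often came from few nuclei. Iigp1, an interferon-inducible GTPase, had 0 UMIs in H and 242 in HH, at least 34.5-fold higher (interval limit 4.80 on the log2 scale), but they lay in 18 nuclei and 101 of them in 1. It was at 132 CPM in HH, 146 in C and 11.7 in CC, and at 46.7 CPM in mesothelial-like nuclei of H. Inhbc, a subunit of activin, had 0 and 74 UMIs in 4 nuclei, at least 10.6-fold (interval limit 3.06). Aldh1a3, which makes retinoic acid, had 3 and 89 UMIs in 3 and 16 nuclei. Spread over more nuclei was Sorbs2, a cytoskeletal adaptor, at 99.8 and 295 CPM (40 and 175 nuclei). On the lower side Sptlc3, a subunit of the enzyme that begins sphingolipid synthesis, was at 119 CPM in H and 19.7 in HH, in 14 and 13 nuclei. Stk10 had 118 and 73 UMIs, 48 of those of H in 1 nucleus, and Rapgef4 47 and 24. Bend6 had 42 and 24 UMIs, 29 of those of H in 1 nucleus, and Gemin5 36 and 24. The chemokine Ccl2 was at 89.5 and 25.2 CPM, with 30 of its 70 UMIs of H in 1 nucleus. With the nucleus of most UMIs left out for each gene, 137 of the 142 genes and 31 of the 44 genes were still called in the same direction. With the nuclei above the limit of 3000 genes included, 200 genes were called higher and 161 lower, of which 28 and 8 were among those called within the limit. Log2 ratios of Rapgef4 (-0.21), Gemin5 (-0.22), Bend6 (-0.69), Ccl2 (-0.60), Sfrp5 (-0.48) and Cebpd (0.60) then fell short of 2-fold, that of Aldh1a3 reversed (-0.55), and Sptlc3, Stk10 and Sorbs2 stayed past it.

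In mesothelial-like nuclei, 142 of 9032 genes (1.57%) were called higher and 36 (0.399%) lower, and endothelial-like nuclei served as their background. With it subtracted 107 were higher (40 among the 142) and 110 lower (18 among the 36). Identity genes were mostly level, with 1 of 13 called higher. Gpm6a was at 3097 CPM in H and 2563 in HH, Muc16 at 884 and 799 and mesothelin, Msln, at 285 and 189. Slpi, a secreted protease inhibitor, was at 811 and 1416 CPM, and the called gene Cdh2, which encodes N-cadherin, at 22.8 and 82.9 CPM in 20 and 87 nuclei. Matrix and inflammatory genes had 1 of 11 called higher, Saa3 at 10.9 and 42.1 CPM, a level also met in endothelial-like nuclei (6.44 and 45.4 CPM). Col3a1 was at 2792 and 2591 CPM and C3 at 1402 and 1656.

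Genes called lower in mesothelial-like nuclei had no list in common. Slc39a8, which carries zinc and manganese into cells, was at 591 CPM in H and 198 in HH (595 and 424 UMIs in 185 and 227 nuclei), against 345 in C and 236 in CC. Itgbl1 was at 595 and 230 CPM, the receptor phosphatase Ptprz1 at 134 and 50.1, the formin Diaph3 at 116 and 45.9, the Wnt modulator Sfrp2 at 186 and 78.2 and Lbh at 56.6 and 11.2. HH lay within or below the range of C and CC for all 6 but Sfrp2. On the higher side Scara5, a ferritin receptor, was at 52.6 and 134 CPM (41 and 205 nuclei) and Hoxa9 at 6.95 and 28.6 CPM. Hoxa9 in the endothelial-like background was at similar levels, 8.06 and 25.2 CPM. Chl1 (2 and 61 UMIs), Ccnb1ip1 (4 and 51) and the heat shock gene Hspa1a (5 and 53) had 29, 43 and 33 of their UMIs of HH in 1 nucleus. With H and HH clustered alone the log2 ratio of Chl1 was 0.25, and with no limit on genes that of Ccnb1ip1 was -0.48 and that of Hspa1a 0.88.

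In endothelial-like nuclei, 86 of 5716 genes (1.5%) were called higher and 25 (0.437%) lower. With the mesothelial level subtracted 127 were higher (33 among the 86) and 113 lower (7 among the 25). Capillary lipid handling had 0 of 9 called and vessel growth and adhesion 0 of 13. The fatty acid carrier gene Fabp4 was at 2673 CPM in H and 4014 in HH, Cd36 at 4531 and 3365, and Pparg at 1152 and 707. Flt1, a receptor for vascular growth factor, was at 1281 and 1092 CPM, Tek at 619 and 566 and Vwf at 512 and 656. Among the called lower were Iigp1 at 384 and 169 CPM, Gvin1 at 93.5 and 35.3, and Gbp4 at 217 and 108, whose log2 ratio as a mean over nuclei was -0.88. Postn (168 and 44.1 CPM), the long noncoding RNA Morrbid (208 and 74.3) and Cwc22 (85.4 and 30.2) were lower too. Among the called higher, Ighm (19.3 and 126 CPM), Igkc (35.4 and 176) and H2-Eb1 (108 and 340) were also at 53.4, 109 and 219 CPM in mesothelial-like nuclei of HH. The adipokine gene Cfd was at 25.8 and 105 CPM, against 554 in C and 1129 in CC. Its mesothelial-like level was 8.94 and 42.1 CPM in H and HH, and 485 and 672 CPM in C and CC. Csmd1 had 31 and 158 UMIs in 6 and 18 nuclei, and Fgf13 had 5 and 50 UMIs, 37 of those of HH in 1 nucleus.

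**Figure D5:**
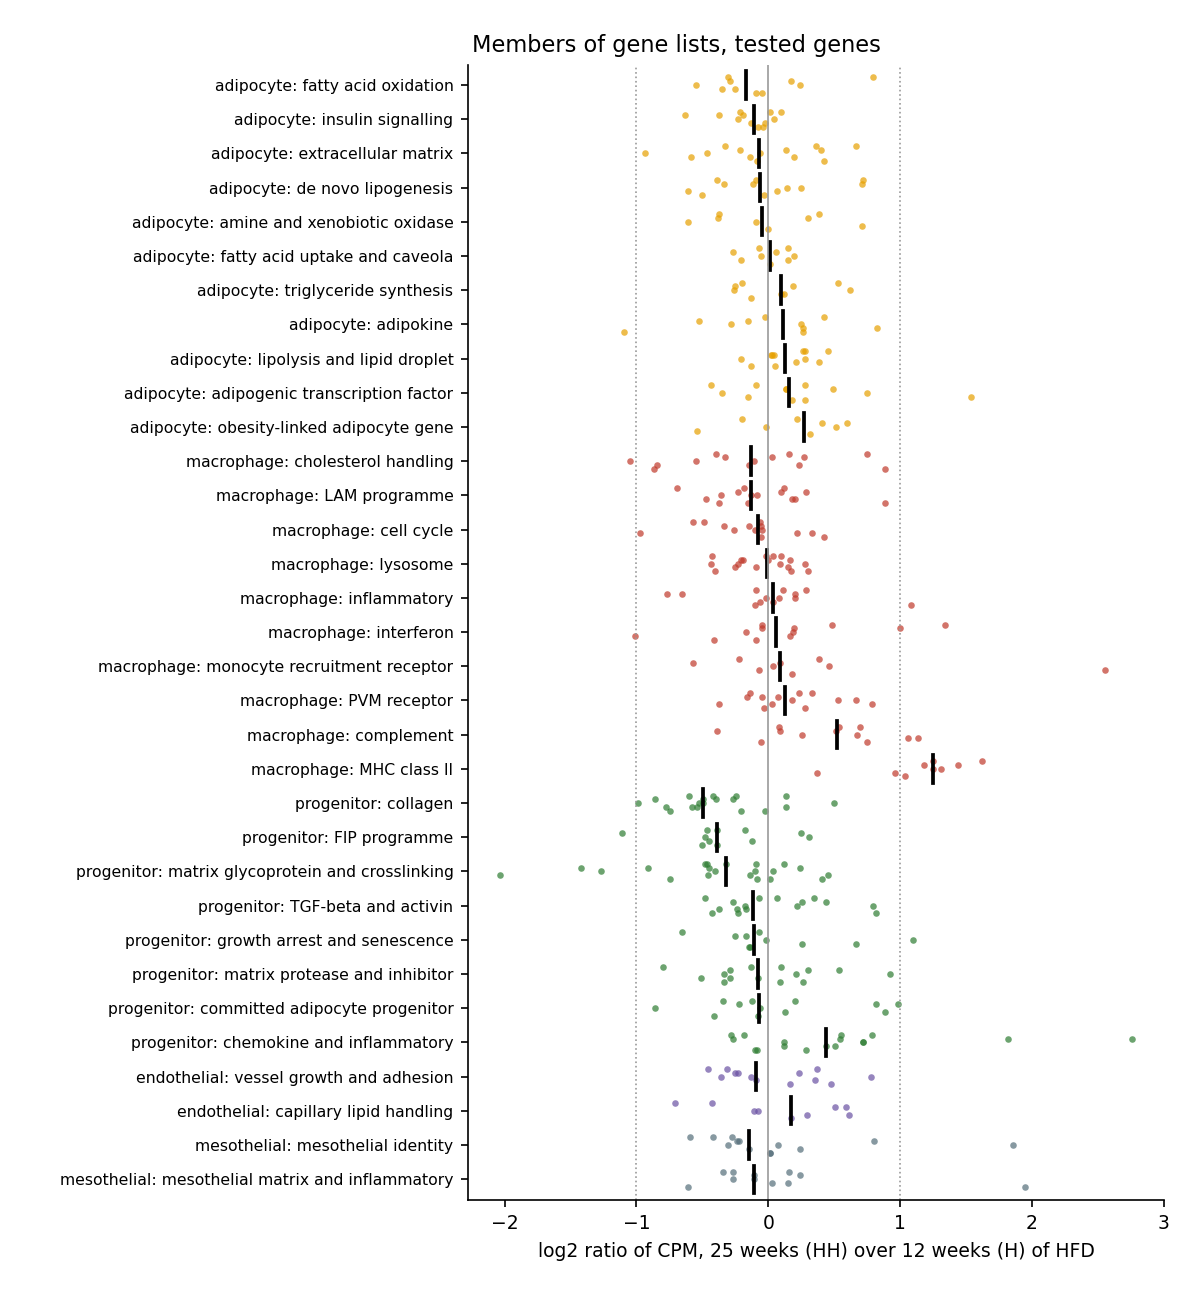
Log2 ratio of CPM in HH over H (x axis) for the tested members of each gene list (y axis, coloured by cell class), with the median of the list as a black line and dotted lines at 2-fold. MHC class II in macrophage-like nuclei is farthest to the right, with a median of 1.25, and collagen in progenitor-like nuclei farthest to the left, with -0.49.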

How the data were processed

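The authors aligned single-nucleus reads to the mouse genome and deposited a filtered matrix of UMI counts for each library, and the submitters' processing notes name Cell Ranger 6.1.2, Seurat 4.1.0 and build mm10. Each of these deposited count matrices lists 32285 genes. Reads in introns were counted. Per the study's methods, free RNA was estimated with SoupX, and the authors found that none of the samples needed correcting.

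Nuclei of H, HH, C and CC were normalised and reduced to 30 principal components over 2000 variable genes. They were corrected for library with a Harmony-type method and clustered with leidenalg 0.10.2 (Leiden, resolution 0.5). Doublets called by Scrublet in scanpy 1.11.5 (222 in H, 743 in HH) and clusters of mixed low-count nuclei (119 and 143) were left out. Clusters were named from marker lists (23 of 24 received a name) and marked "-like". UMIs were summed per class and library, and ratios have exact conditional intervals, shares Clopper-Pearson intervals and differences of shares Newcombe intervals. Scripts were tested on simulated counts.

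In each class the text names the 6 genes called higher and the 6 called lower with the interval bound farthest from equality, leaving out genes without an official name and genes below the reference nuclei. Of each list it names the 2 to 4 members with most UMIs or called, and it names all macrophage state markers. Other list members (Gpd1, Grb14, Cebpb, Sqle, Srebf2, Timp3 and Msln among them) were chosen after their values were seen. A few genes that these rules would name are not reported here. The comparison, the lists and the tests were chosen with earlier results of these data known. Coordinates are those of GENCODE vM21 on GRCm38 for 32235 matched genes. Alternatives were 6 other ways of clustering, TMM factors (edgeR 4.0.16), subtraction of reference nuclei, means over nuclei and count minimums of 20 and 200.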

Additional observations from a re-analysis of the deposited data

Results flagged for a closer look

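For 4 of the named genes the call went in opposite directions in a pair of cell classes, and the difference between the classes was not tested for any of them. Sfrp5 had a log2 ratio of HH over H of -1.10 in adipocyte-like nuclei and 1.27 in macrophage-like nuclei, from 32 and 35 UMIs in the first class and 37 and 80 in the second. With nuclei over the gene limit included, the first value was -0.48.

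Iigp1 was at least 34.5-fold higher in HH in adipocyte-like nuclei, with the count of H taken at 3 (limit of the two-sided interval 4.80 on the log2 scale), where 101 of 242 UMIs lay in 1 nucleus, and had a log2 ratio of -1.18 in endothelial-like nuclei (238 and 134 UMIs).

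Hba-a2 had a log2 ratio of -1.82 in macrophage-like nuclei, where 1 nucleus of H held 773 of 1770 UMIs. In progenitor-like nuclei the ratio was 1.63, from 33 and 127 UMIs of class totals of 5408033 and 6709552. The mesothelial-like level of Hba-a2 was 14.9 CPM in H and 18.3 in HH. With H and HH clustered alone, which left 5820 nuclei led by macrophage markers outside the class, the first value was 1.75, on the same side as the second.

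Chl1 had a log2 ratio of -1.97 in progenitor-like nuclei (282 and 89 UMIs in 66 and 24 nuclei) and of 3.85 in mesothelial-like nuclei, where its 61 UMIs of HH lay in 6 nuclei. With H and HH clustered alone, the second value was 0.25.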

How the results depend on the processing

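No paired analysis was possible because there was 1 library on each side. For class shares, the macrophage difference of -11.0 points was -7.13 at resolution 1, -8.26 with doublets kept, -8.42 with mixed low-count clusters kept and -0.314 when only H and HH were clustered, where macrophage nuclei lay in a cluster without a name. Progenitors differed by 0.345 points in place of 6.53 without library correction, B cells by 1.99 in place of 1.65 with doublets kept, and endothelial cells by 0.221 with doublets kept and 0.13 with no limit on genes in place of -0.0482. The LAM difference of -3.87 points was -16.6 without library correction, -6.17 with doublets kept, -2.18 with no limit on genes, -6.64 with mixed clusters kept and 0.279 with H and HH alone. PVMs (0.17) differed by -0.878 without library correction, -0.329 with doublets kept, -0.273 at resolution 1 and -3.88 with H and HH alone. Clusters matched to NPVM markers (-0.245) differed by 18.9 without library correction, 6.48 at resolution 1, 5.61 with doublets kept, 6.54 with mixed clusters kept and 2.27 with H and HH alone. The cause was not tested for any of these.

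Counts of called genes moved with the count minimum by construction. With 20 UMIs in place of 50 and then with 200, genes higher numbered 262 and 14 in adipocytes, 552 and 121 in macrophages, 461 and 77 in progenitors, 257 and 15 in mesothelial and 236 and 9 in endothelial nuclei, and genes lower 156 and 6, 167 and 38, 167 and 27, 108 and 6, and 111 and 2. With the reference nuclei subtracted, genes lower numbered 97, 357, 348, 110 and 113 in that order, of which 19, 48, 43, 18 and 7 were among those called without it. With no limit on genes, they were 161 in adipocytes (8 shared with the 44) and 114 in progenitors (66 shared with the 75), and genes higher were 148 in endothelial nuclei, or 161 with doublets kept. With H and HH alone, macrophages had 202 higher (136 shared) and 49 lower (13 shared), from a class without the 5820 unnamed nuclei. Without library correction progenitors had 119 higher (51 shared).

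Medians of lists moved as follows. De novo lipogenesis (-0.06) was 0.181 with no limit on genes and 0.0282 as a mean over nuclei. MHC class II (1.25) was 0.96 with H and HH alone and 0.98 with the reference subtracted. The LAM programme (-0.13) was -0.21 with no limit on genes, -0.16 as a mean over nuclei and 0.034 with the reference subtracted. Collagen (-0.49) was -0.33 without library correction, -0.36 with no limit on genes and -0.65 with the reference subtracted. With that subtraction matrix glycoproteins (-0.32) were -0.58 and chemokines (0.44) -0.0151.

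Single genes reversed under 1 setting each. Aldh1a3 in adipocytes was -0.55 and Ccnb1ip1 in mesothelial nuclei -0.48 with no limit on genes, Hba-a2 1.75 and Hba-a1 2.10 in macrophages with H and HH alone, and Cemip -3.45 without library correction. Ccl5 (-0.47), Cxcl9 (-4.34) and Ly6c2 (-0.77) reversed with the reference subtracted. Detection of Trem2 differed by -2.69 points without thinning in place of 0.911, and of Mki67 by 0.019 with thinning to 500 UMIs in place of -0.281. TMM factors changed no direction among 76 values. Leaving out the nucleus with most UMIs, chosen after seeing the data, reversed 0 of 73 and moved 5. For 41 values a setting gave none, since a library was left at 0 or at or below the reference level. Leaving out a replicate was not possible with 1 library on each side, so the spread between animals and preparations is unknown. Depth also bears on detection, as the values for Trem2 show.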

Other observations

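Rarer immune and mural classes also differed in their own marker genes, which are described here with no call, since the markers named the classes. In mast cell-like nuclei Hdc, which makes histamine, had 14 UMIs in H and 416 in HH, or 235 and 1330 CPM, a log2 ratio of 2.50 (interval 1.74 to 3.38). The proteases Mcpt4 (655 and 310 CPM) and Cma1 (588 and 297 CPM) were lower in HH, Cpa3 was at 5711 and 4579 CPM and Tpsb2 at 1629 and 1429, with an interval that included equality, while the receptor gene Kit was at 2284 and 2526 CPM. These values come from 37 nuclei of H and 210 of HH.

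Dendritic cell-like nuclei (150 and 139) had several of their 8 markers lower in HH. Cd209a was at 175 and 81.0 CPM and Zbtb46 at 868 and 692. Ccr7, the receptor that guides dendritic cells to lymph nodes, was at 146 and 77.6 CPM (45 and 23 UMIs) and Fscn1, an actin bundler of mature cells, at 159 and 67.5 CPM (49 and 20 UMIs). Markers of conventional type 1 cells were level, Clec9a at 713 and 705 CPM and Xcr1 at 110 and 118 CPM. In smooth muscle or pericyte-like nuclei (65 and 127) the contractile genes Acta2 and Tagln were higher in HH, at 511 and 911 CPM and at 139 and 305 CPM. Of the 11 markers of this class, Notch3 (849 and 667 CPM), Abcc9 (670 and 588) and Pdgfrb (597 and 551) lay on the other side. The intervals of 6 of the 11 included equality, those of Abcc9, Pdgfrb and Mylk among them. A small macrophage-like cluster led by Alox15, Serpinb2, Prg4 and F5 held 15 nuclei of H and 38 of HH. Genes and clusters in these paragraphs were picked after their values were seen.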
